A study of Mus musculus with 12 samples.

Results

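Zinc transporters and metallothioneins were examined in the liver, as 10 genes of the 23849 gene symbols in the deposited expression table. The members are the importers Slc39a4, Slc39a1, Slc39a5, Slc39a8 and Slc39a14, the exporters Slc30a1, Slc30a7 and Slc30a10, and the metallothioneins Mt1 and Mt2, and all 10 were found by symbol. Slc39a4 was singled out with its levels already known, so its values are given as a description without a test, and the other 9 members were compared with it across the groups. RNA was sequenced from the livers of 12 male C57BL/6 mice (C57BL/6J background in the labels), all fed a high-fat diet (HFD) for 6 weeks. An age of 8 weeks is listed for all of them. Whether it is the age at collection or at the start of the diet is not clear. Vehicle (drinking water) or the fiber product Policaptil Gel Retard, called Libramed in the labels and known to form gels, was given over the last 2 weeks as 200 µl by oral gavage once a day at ZT11, the product at 20 mg/ml. Livers were taken at ZT0 or ZT12 (zeitgeber time, hours after lights on), which gave 4 groups of 3 mice. No mice on a normal diet are among these samples, so every group shares the HFD. Expression is in FPKM, fragment counts scaled by transcript length and by the size of the library, and log2 differences are on the log2(FPKM + 1) scale, which understates the change of low genes.

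Zinc is moved across membranes by opposing protein families. SLC39 proteins, also called ZIP, bring zinc into the cytosol from outside the cell or from organelles, and SLC30 proteins, also called ZnT, move it out of the cytosol. Metallothioneins are small cysteine-rich proteins that bind zinc and copper in the cytosol, and the liver makes them in large amounts in response to zinc, glucocorticoids and IL-6. The zinc-sensing transcription factor MTF-1 binds metal response elements, short DNA motifs near the start of the metallothionein genes and of Slc30a1.

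The promoter windows of Mt1, Mt2, Slc30a1 and Slc30a10 are shown because these genes held at least 2 matches to the core letters of the metal response element. Each window runs from 250 bases before to 50 bases after the RefSeq start site (GRCm38.p6, all on the plus strand), is written 5′ to 3′, and has in capitals every match to TGCACNC or TGCGCNC on either strand. Positions count from 0 at the RefSeq start site. The GENCODE start of Mt2 lies further downstream, so the positions depend on the annotation used. Mt2 lies at chr8:94172368-94172667, Mt1 at chr8:94178839-94179138, Slc30a1 at chr1:191906531-191906830 and Slc30a10 at chr1:185454598-185454897.
Mt2: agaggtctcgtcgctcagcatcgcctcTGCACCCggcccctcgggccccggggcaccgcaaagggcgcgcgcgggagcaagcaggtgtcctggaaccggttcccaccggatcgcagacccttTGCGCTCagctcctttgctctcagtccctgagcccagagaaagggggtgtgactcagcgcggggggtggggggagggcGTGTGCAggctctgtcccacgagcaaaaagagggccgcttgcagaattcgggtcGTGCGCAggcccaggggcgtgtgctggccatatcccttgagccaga
Mt1: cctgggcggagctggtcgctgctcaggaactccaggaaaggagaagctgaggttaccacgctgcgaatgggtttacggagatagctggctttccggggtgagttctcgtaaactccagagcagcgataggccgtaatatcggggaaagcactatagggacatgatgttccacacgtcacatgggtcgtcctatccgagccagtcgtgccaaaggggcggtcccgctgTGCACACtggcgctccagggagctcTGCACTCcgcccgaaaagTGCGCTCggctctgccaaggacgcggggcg
Slc30a1: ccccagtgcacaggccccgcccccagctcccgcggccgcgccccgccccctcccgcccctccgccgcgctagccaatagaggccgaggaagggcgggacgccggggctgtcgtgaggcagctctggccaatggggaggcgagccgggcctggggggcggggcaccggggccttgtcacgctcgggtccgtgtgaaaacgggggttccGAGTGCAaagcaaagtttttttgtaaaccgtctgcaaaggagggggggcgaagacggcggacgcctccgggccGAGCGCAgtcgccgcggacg
Slc30a10: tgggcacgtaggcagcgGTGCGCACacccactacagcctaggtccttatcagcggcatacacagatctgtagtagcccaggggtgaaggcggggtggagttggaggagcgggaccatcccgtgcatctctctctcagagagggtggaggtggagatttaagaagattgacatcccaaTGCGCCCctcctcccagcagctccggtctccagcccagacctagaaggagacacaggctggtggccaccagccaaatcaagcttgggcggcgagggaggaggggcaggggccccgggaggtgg

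The Mt2 window held 4 matches, starting at -223 and -128 on the strand of the gene and at -50 and 4 on the other strand. The Mt1 window held 3, starting at -23, 2 and 20, all on the strand of the gene. The Slc30a1 window held 2 matches on the other strand, at -43 and 30. The Slc30a10 window held 3, of which a pair on opposite strands overlapped at -233 and -232 and the other started at -73. Among the 32851 promoters of the reference table, 25.7% held at least 1 match, 7.11% at least 2, 1.97% at least 3 and 0.517% at least 4. Windows were found for 8 of the 10 members. Slc39a5 and Slc39a8 have 2 start sites each, and each gene held 1 match at 1 of them, while the Slc39a1 and Slc30a7 windows held none. No windows were found for Slc39a4 and Slc39a14. These matches are letters in a window and were not tested for binding.

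**Figure D1:**
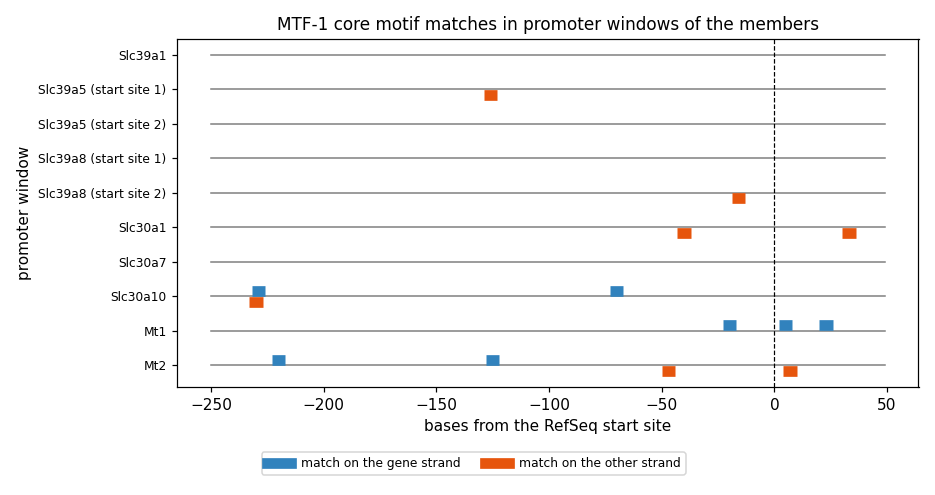
Matches to the core letters of the metal response element in the promoter windows of the members (rows), by distance in bases from the RefSeq start site (dashed line). Blocks above a line are matches on the strand of the gene and blocks below it are on the other strand. Mt2 holds 4 matches, Mt1 and Slc30a10 hold 3 each, and Slc30a1 holds 2.

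Slc39a4 (ENSMUSG00000063354.7, chromosome 15, 76612383 to 76617384, minus strand, GENCODE vM21 on GRCm38) encodes ZIP4, the importer best known for taking up dietary zinc in the intestine. In vehicle mice it was at 14.2, 15.1 and 16.5 FPKM at ZT0 (15.3 ± 1.17, mean ± SD, n = 3) and at 11.97, 10.7 and 11.4 FPKM at ZT12 (11.3 ± 0.653, n = 3). With the product it was at 18.7, 25.4 and 21.8 FPKM at ZT0 (22.0 ± 3.36, n = 3) and at 20.5, 17.9 and 21.1 FPKM at ZT12 (19.8 ± 1.70, n = 3). All 6 Policaptil Gel Retard mice were above all 6 vehicle mice. The mean with the product was 1.44 times that with vehicle at ZT0 and 1.75 times at ZT12, log2 differences of 0.49 and 0.75. From ZT0 to ZT12 the log2 difference was -0.40 in vehicle mice, whose times did not overlap, and -0.13 in Policaptil Gel Retard mice, whose times did. In order of their means, the groups ran from vehicle ZT12 to vehicle ZT0, Policaptil ZT12 and Policaptil ZT0, and only the last pair of neighbours overlapped. These levels chose the gene and are no independent evidence of its direction. In whole-liver RNA, fewer cells of a type and less RNA per cell cannot be told apart.

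The SLC39 family as a whole did not share this order. The summed FPKM of the SLC39 genes was 189.9 ± 11.1 in vehicle ZT0, 169 ± 6.38 in vehicle ZT12, 180.5 ± 2.75 in Policaptil ZT0 and 168 ± 6.70 in Policaptil ZT12 (n = 3 each). Slc39a4 made up 8.07% ± 1.01 and 6.70% ± 0.158 of that sum in vehicle mice at ZT0 and ZT12, and 12.2% ± 1.67 and 11.8% ± 0.830 with the product. The lowest share with the product was 10.5% and the highest with vehicle was 8.98%. Slc39a7, a zinc channel of the endoplasmic reticulum and Golgi, took the highest share of the family at ZT0, 34.4% ± 1.79 in vehicle and 36.7% ± 3.70 in Policaptil Gel Retard mice. Slc39a14 was next at ZT0, at 22.1% ± 1.29 and 17.5% ± 0.460. At ZT12 the shares of these genes were close. Slc39a14 had 28.6% ± 2.36 and Slc39a7 27.1% ± 0.672 in vehicle mice, against 26.6% ± 2.57 and 27.3% ± 2.70 with the product.

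**Figure D2:**
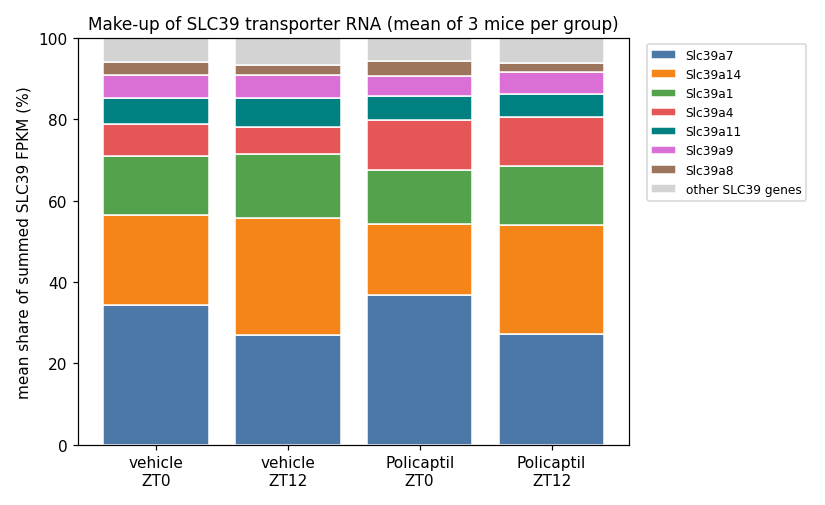
Share of each SLC39 gene in the summed SLC39 FPKM, in percent, as the mean of 3 mice per group. The Slc39a4 band widens from 8.07% and 6.70% in the vehicle groups to 12.2% and 11.8% in the Policaptil groups, and the Slc39a7 band is wider at ZT0 than at ZT12.

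Markers of other tissues were checked beside Slc39a4. Of 9 markers of intestinal epithelium, 7 were under 1 FPKM in all samples and 3 of those, Sis and Alpi among them, were listed at 0. The summed level of the 9, carried by Fabp2 and Anpep, ran from 160.3 to 195 FPKM in vehicle ZT0, 204 to 216 in vehicle ZT12, 175 to 207 in Policaptil ZT0 and 164 to 199 in Policaptil ZT12. Of 7 hepatocyte markers, 6 were in the table and Alb, the gene of serum albumin, was listed at 0 in all samples. Gapdh, which every cell uses, was between 0.103 and 0.822 FPKM, so a value at or near 0 in this table can be a failed estimate, also for the markers of other tissues. The hepatocyte markers summed to 33280 to 36500 FPKM in vehicle ZT0 and 33410 to 38390 in vehicle ZT12. With the product their sum was 38350 to 47510 FPKM at ZT0 and 37550 to 43350 at ZT12. The treatments thus overlapped at ZT12 but not at ZT0. Most of that sum was Apoa1, an apolipoprotein, at 21890 to 23580 FPKM in vehicle ZT0 and 25810 to 32460 in Policaptil ZT0. The other markers together ran from 11380 to 13350 FPKM in vehicle ZT0 and from 12540 to 15050 in Policaptil ZT0, with overlap. The part of these markers in the Slc39a4 levels was not tested.

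Gavage was once a day at ZT11, so livers taken at ZT0 and ZT12 also differed in the time since gavage. The hour of the day and the time since gavage cannot be told apart in these samples. In the comparison of ZT12 with ZT0, the member called lower over all genes in vehicle mice was the exporter Slc30a10. In Policaptil Gel Retard mice Mt1, Mt2 and Slc39a14 were called higher and Slc39a8 lower. Mt1, Mt2, Slc39a14 and Slc39a8 had differences of the same sign in vehicle mice, and Slc30a10 had the same sign with the product. No interaction of time and treatment passed for any member. Of the 9 members other than Slc39a4, 8 averaged 1 FPKM or more across the 12 mice and were tested among 9806 genes. In vehicle mice 1 of the 8 passed a Benjamini-Hochberg adjusted p under 0.05 in limma, where 10.4% of all genes tested did. In Policaptil Gel Retard mice 4 of the 8 passed, where 12.4% of all genes did. In vehicle mice 4 of the 8, Slc39a8, Slc30a10, Mt1 and Mt2, passed in a Cyber-T test, a regularised test after that of the study (14.1% of all genes), and in a limma fit of all 12 samples (15.7%). With the product 6 and 5 passed in these, where 16.2% and 14.9% of all genes did, so the counts of 1 and 4 do not show a difference between treatments. At an unadjusted p under 0.05, the threshold of the study, 4 and 6 members passed, against 27.4% and 29.2% of all genes. The samples of the times did not overlap for 3 and 5 members, against 33.2% and 34.9% of all genes. The median log2 difference over the 8 was 0.08 in vehicle and 0.20 in Policaptil Gel Retard mice, and over all genes 0.0078 and 0.0131.

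**Figure D3:**
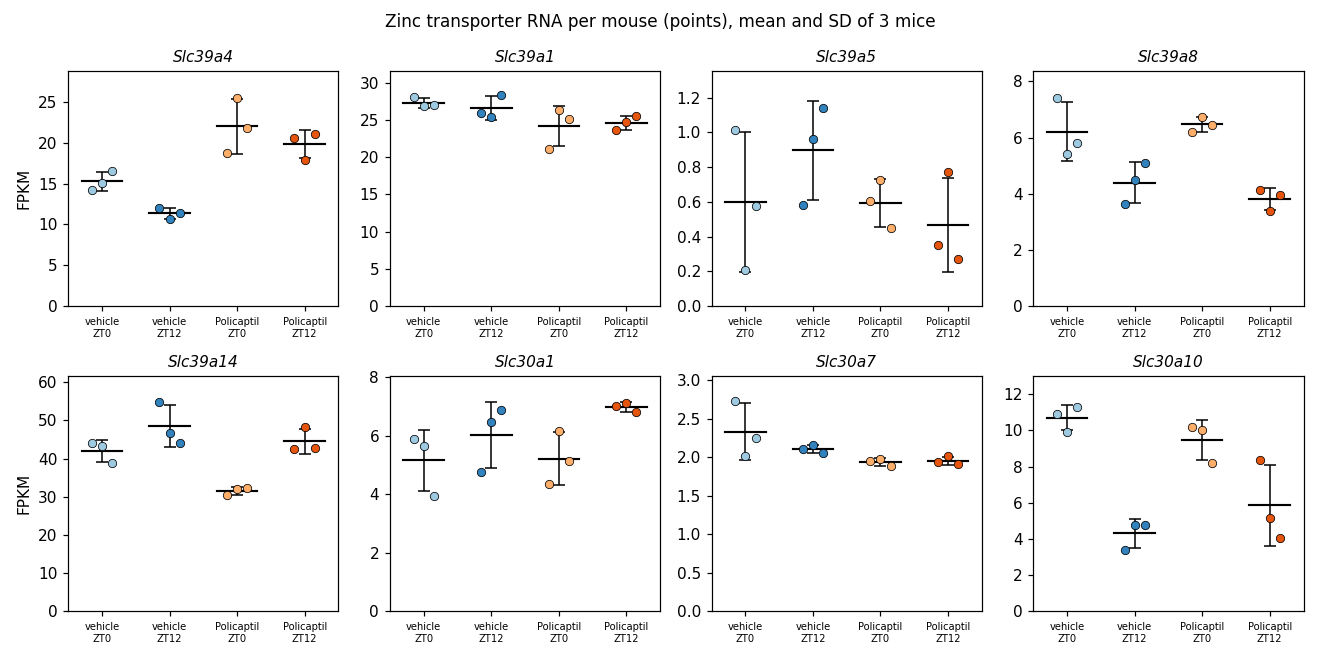
FPKM (vertical axes, from 0) of the 8 zinc transporters in each mouse (points) of the 4 groups, with the mean (wide bar) and SD (error bar) of 3 mice. Slc39a4 is higher in all Policaptil mice than in all vehicle mice, Slc30a10 and Slc39a8 are lower at ZT12 than at ZT0 on average, and Slc39a14 is lowest in Policaptil ZT0.

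Slc30a10 (ENSMUSG00000026614.6, chromosome 1, 185454848 to 185468762) encodes an SLC30 exporter that carries manganese, so its level does not stand for zinc export alone. In vehicle mice it was at 10.9, 9.92 and 11.3 FPKM at ZT0 (10.7 ± 0.710, n = 3) and at 3.40, 4.78 and 4.76 FPKM at ZT12 (4.31 ± 0.789, n = 3). The ZT0 mean was 2.49 times that at ZT12 and the samples did not overlap. The log2 difference was -1.15 ± 0.128 (SE), with an adjusted p of 0.00577 in limma. With the product it was at 10.2, 10.03 and 8.22 FPKM at ZT0 (9.47 ± 1.09, n = 3) and at 8.36, 5.15 and 4.04 FPKM at ZT12 (5.85 ± 2.25, n = 3). Replicate 1 at ZT12 lay within the ZT0 range, and the log2 difference of -0.66 ± 0.220 had an adjusted p of 0.0969 in limma. Without that mouse it was -0.91, with an adjusted p of 0.0159 in limma, and with all 12 samples in the fit the adjusted p was 0.0428. With each mouse left out in turn the log2 difference ran from -0.91 to -0.46. Over all alternative settings, left-out mice included, the adjusted p ran from 0.00622 to 0.229 in limma or Cyber-T. The change over time was not shown to differ between treatments, with an interaction of 0.49 ± 0.274 on the log2 scale and an adjusted p of 0.794 in limma.

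Slc39a8 (ENSMUSG00000053897.15, chromosome 3, 135825279 to 135888572) encodes ZIP8, an importer of zinc, manganese and iron. In Policaptil Gel Retard mice it was at 6.20, 6.74 and 6.46 FPKM at ZT0 (6.47 ± 0.273, n = 3) and at 4.13, 3.39 and 3.97 FPKM at ZT12 (3.83 ± 0.393, n = 3). All ZT12 samples lay below all ZT0 samples, a log2 difference of -0.63 ± 0.0910 with an adjusted p of 0.00803 in limma. In vehicle mice the values were 7.41, 5.41 and 5.81 FPKM at ZT0 (6.21 ± 1.06, n = 3) and 3.64, 4.48 and 5.08 FPKM at ZT12 (4.4 ± 0.727, n = 3). The times did not overlap there either, but the log2 difference of -0.42 ± 0.144 did not pass over all genes in limma (p 0.0239, adjusted p 0.118). It did with all 12 samples in the fit (adjusted p 0.0415), but not with the replicate numbers as a block in limma (adjusted p 0.223). The interaction of -0.22 had an adjusted p of 0.869 in limma.

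Slc39a14 (ENSMUSG00000022094.15, chromosome 14, 70303469 to 70351425, minus strand) encodes ZIP14, the importer through which the liver takes up zinc and manganese and which IL-6 induces there. In vehicle mice it was at 43.9, 43.2 and 38.7 FPKM at ZT0 (42.0 ± 2.83, n = 3) and at 54.8, 46.7 and 44.2 FPKM at ZT12 (48.5 ± 5.53, n = 3). In Policaptil Gel Retard mice it was at 30.3, 32.2 and 32.2 FPKM at ZT0 (31.6 ± 1.06, n = 3) and at 42.5, 48.2 and 42.7 FPKM at ZT12 (44.5 ± 3.21, n = 3). The Policaptil ZT0 samples were the lowest of the 4 groups and overlapped none of them. The rise to ZT12 with the product was 0.48 ± 0.0819 on the log2 scale, with an adjusted p of 0.0136 in limma. Without Policaptil ZT12 replicate 2 it was 0.42 and the adjusted p was 0.0521 in limma. In vehicle mice the difference was 0.20 ± 0.106, with an adjusted p of 0.268 in limma. The interaction of 0.28 ± 0.132 did not pass in limma (p 0.0584, adjusted p 0.755).

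Slc30a1 (ENSMUSG00000037434.7, chromosome 1, 191906767 to 191913247) encodes ZnT1, the exporter of the plasma membrane and a target of MTF-1. In vehicle mice it was at 5.89, 5.64 and 3.95 FPKM at ZT0 (5.16 ± 1.05, n = 3) and at 4.77, 6.47 and 6.87 FPKM at ZT12 (6.04 ± 1.12, n = 3), with overlap. With the product it was at 4.35, 6.17 and 5.15 FPKM at ZT0 (5.23 ± 0.913, n = 3) and at 7.02, 7.12 and 6.80 FPKM at ZT12 (6.98 ± 0.162, n = 3). The latter groups did not overlap, but the log2 difference of 0.37 ± 0.116 did not pass over all genes in limma (p 0.0151, adjusted p 0.0828). In the Cyber-T test the adjusted p was 0.0487, and over all alternative settings it reached 0.196 in limma or Cyber-T.

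Slc39a1 (ENSMUSG00000052310.9, chromosome 3, 90248172 to 90253612) encodes ZIP1, a widely expressed importer. It was at 28.02, 26.9 and 27.0 FPKM in vehicle ZT0 (27.3 ± 0.631, n = 3) and at 26.0, 25.4 and 28.4 FPKM in vehicle ZT12 (26.6 ± 1.56, n = 3). It was at 21.1, 26.3 and 25.1 FPKM in Policaptil ZT0 (24.2 ± 2.71, n = 3) and at 23.6, 24.8 and 25.5 FPKM in Policaptil ZT12 (24.6 ± 0.958, n = 3). The log2 differences over time were -0.04 and 0.03, with adjusted p of 0.801 and 0.873 in limma. Slc30a7 (ENSMUSG00000054414.4, chromosome 3, 115938973 to 116007406, minus strand) encodes ZnT7, which loads zinc into the Golgi, and ran from 1.88 to 2.73 FPKM over the 12 samples, with no unadjusted p under 0.05 in any comparison. Slc39a5 (ENSMUSG00000039878.13, chromosome 10, 128395931 to 128401229, minus strand) encodes ZIP5, known from pancreas and intestine. It ran from 0.209 to 1.14 FPKM, below the minimum mean, and was not tested.

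Mt1 and Mt2 had the largest log2 differences over time of the members tested and, in vehicle mice, the largest spread between mice. Mt2 (ENSMUSG00000031762.7, chromosome 8, 94172664 to 94173568) lies 5.51 kb before Mt1 (ENSMUSG00000031765.8, chromosome 8, 94179082 to 94180327), on the same strand. Both encode close copies of the same protein, and how reads shared by them were divided in the deposited table is not given, so their levels and ratio are uncertain in that respect. In vehicle mice Mt1 was at 159, 52.7 and 21.8 FPKM at ZT0 (77.8 ± 71.9, n = 3) and at 118, 398 and 1785 FPKM at ZT12 (767 ± 893, n = 3). Vehicle ZT12 replicate 1 lay below vehicle ZT0 replicate 1, so the times overlapped. The log2 difference of 2.92 ± 1.06 did not pass over all genes in limma (p 0.0292, adjusted p 0.131). In Policaptil Gel Retard mice Mt1 was at 15.2, 39.4 and 39.6 FPKM at ZT0 (31.4 ± 14.1, n = 3) and at 339.6, 460.0 and 331 FPKM at ZT12 (377 ± 71.99, n = 3). These groups were far apart, with a ZT12 mean 12.01 times that at ZT0. The log2 difference was 3.65 ± 0.356, with an adjusted p of 0.00235 in limma.

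Mt2 was lower than Mt1 in each of the 12 mice, and it ranked the mice of each group in the same order as Mt1 except in Policaptil ZT0. In vehicle mice it was at 55.5, 9.84 and 6.14 FPKM at ZT0 (23.8 ± 27.5, n = 3) and at 29.7, 239 and 1023 FPKM at ZT12 (431 ± 524, n = 3), again with overlap. The log2 difference was 3.58 ± 1.32 (p 0.0302, adjusted p 0.134 in limma). With all 12 samples in 1 limma fit, which estimates the spread from the 4 groups together, the adjusted p in vehicle mice was 0.0447 for Mt1 and 0.0416 for Mt2. With the replicate numbers as a block in limma these were 0.246 and 0.243. Over all alternative settings, left-out mice included, they reached 0.321 and 0.320 in limma or Cyber-T. With the product Mt2 was at 3.21, 7.91 and 5.40 FPKM at ZT0 (5.51 ± 2.35, n = 3) and at 174, 269 and 161 FPKM at ZT12 (202 ± 58.9, n = 3). The ZT12 mean was 36.6 times that at ZT0, and the log2 difference of 4.99 ± 0.298 had an adjusted p of 0.00047 in limma. The change over time was not shown to differ between treatments for Mt1 (0.73 ± 1.24, adjusted p 0.955 in limma) or Mt2 (1.41 ± 1.49, adjusted p 0.903).

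**Figure D4:**
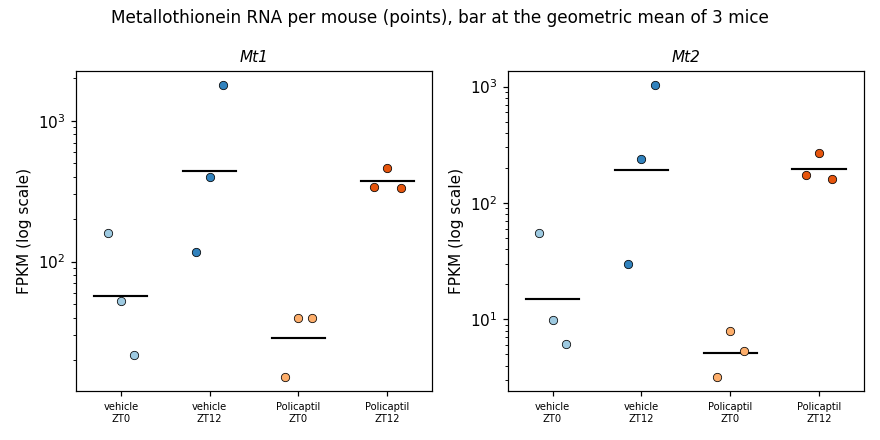
FPKM of Mt1 and Mt2 on log axes in each mouse (points) of the 4 groups, with a bar at the geometric mean of 3 mice. The Policaptil ZT12 mice lie close together and above all Policaptil ZT0 mice, while the vehicle mice of each time spread over a wide range and overlap.

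The ratio of Mt1 to Mt2 FPKM was 2.86, 5.36 and 3.54 in vehicle ZT0 and 3.96, 1.67 and 1.74 in vehicle ZT12. It was 4.72, 4.98 and 7.33 in Policaptil ZT0 and 1.95, 1.71 and 2.06 in Policaptil ZT12. The ratio was thus lower in the mice with the highest levels of both genes, but did not follow the order of levels among the rest. Vehicle ZT12 replicate 1, low in both genes for its group, had a ratio within the vehicle ZT0 range. Within vehicle ZT12 the highest mouse had 15.2 times the Mt1 and 34.5 times the Mt2 of the lowest, a coefficient of variation of 116% and 122%. Within Policaptil ZT12 these folds were 1.39 and 1.67. The median coefficient of variation over all genes tested was 8.95% in vehicle ZT12 and 10.2% in Policaptil ZT12.

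Comparing Policaptil Gel Retard with vehicle asks what the fiber blend changed at each time. Among the 8 members, Slc39a14 was lower with the product at ZT0 by the unadjusted test alone, and none passed over all genes. At ZT0 the count with adjusted p under 0.05 in limma was 0 of 8, as over all genes (0.0%). At an unadjusted p under 0.05 it was 1 of 8, against 9.23% of all genes, and 3 members did not overlap, against 15.1%. At ZT12 the counts in limma were 0 at an adjusted p (0.0% of all genes), 0 at an unadjusted p (6.74%) and 1 without overlap (13.1%). For the interaction they were 0 at an adjusted p (0.0%) and 0 at an unadjusted p (6.63%). Over both times they were 0 at an adjusted p (0.0%) and 2, Slc39a1 and Slc39a14, at an unadjusted p (10.5%). Over all genes, 905, 661, 650 and 1025 had an unadjusted p under 0.05 in these 4 comparisons. In a Cyber-T test, which was run at each time only, 0 members passed an adjusted p, and 3 at ZT0 (Slc39a14, Mt1 and Mt2) and 0 at ZT12 passed an unadjusted p, against 8.6% and 6.73% of all genes. The median log2 difference over the members was -0.17 at ZT0 and -0.09 at ZT12, against -0.0200 and -0.0144 over all genes.

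At ZT0 Slc39a14 differed by -0.40 ± 0.0885 on the log2 scale with no overlap (p 0.00269, adjusted p 0.333 in limma). At ZT12 its difference was -0.12 ± 0.1003, with overlap. Over both times it was -0.26 ± 0.0660 (p 0.00229, adjusted p 0.297 in limma). Slc39a1 differed by -0.14 ± 0.0609 over both times (p 0.0428, adjusted p 0.468 in limma). Mt1 and Mt2 at ZT0 were at -0.96 ± 0.697 and -1.40 ± 0.725 (adjusted p 0.723 and 0.627 in limma). Without vehicle ZT0 replicate 1 these were -0.23 and -0.50, and without vehicle ZT0 replicate 3 they were -1.64 and -1.99. At ZT12 Mt1 was at -0.23 ± 0.871 and Mt2 at 0.01 ± 1.13 (adjusted p 0.968 and 0.998 in limma). The sign of these ZT12 values turned when single mice were left out: Mt1 was at 0.78 without vehicle ZT12 replicate 3, and Mt2 at -1.33 without vehicle ZT12 replicate 1. The comparisons at each time share mice with those over time, so the values stand side by side and are not independent.

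**Figure D5:**
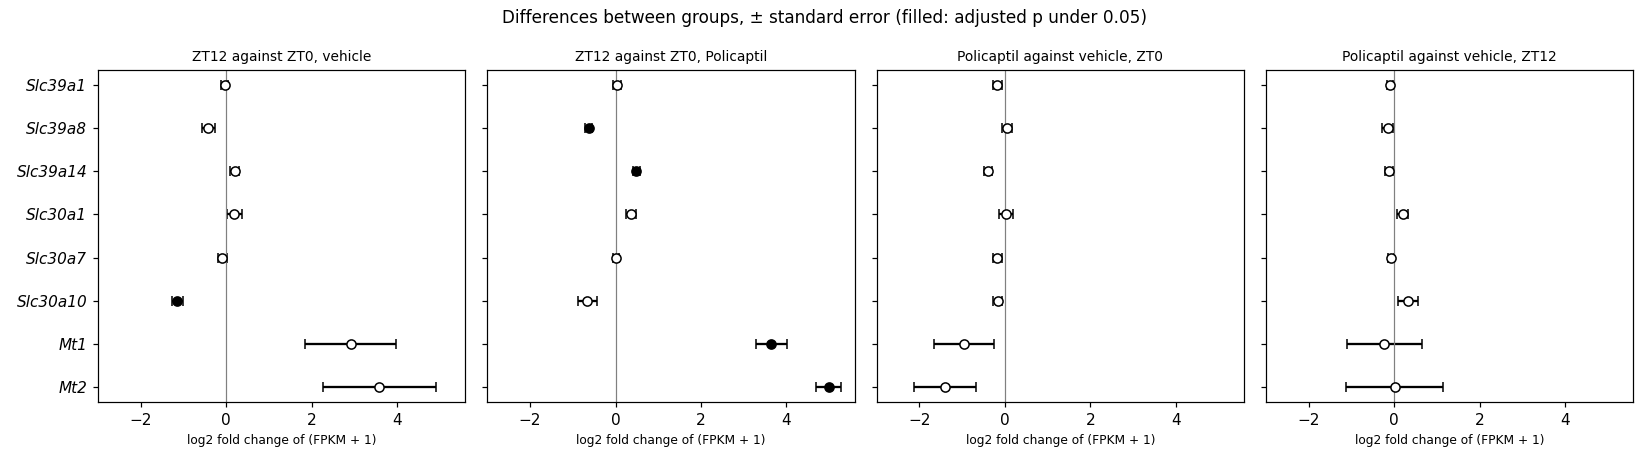
Log2 difference of (FPKM + 1) for the 8 tested members other than Slc39a4 (rows) in 4 comparisons of 3 mice with 3, with standard error, and filled points where the adjusted p in limma was under 0.05. Filled points are Slc30a10 over time in vehicle mice and Slc39a8, Slc39a14, Mt1 and Mt2 over time in Policaptil mice, and there are none in the comparisons of treatments.

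By the mean absolute distance between standardised log2 profiles over the 12 samples, the member nearest to Slc39a4 was Slc30a10, at 0.893 and rank 1241 among all genes tested, followed by Slc39a8 at 0.974, while Slc39a14 was at 1.49 and rank 9582. The median over all genes tested was 1.16. The 5 nearest genes were Mndal (0.314), Lipc (0.397), Des (0.423), Rbm5 (0.450) and Asap1 (0.469). Mndal, Des and Asap1 were near the minimum mean of 1 FPKM, with group means of 1.06 to 1.70, 0.803 to 2.08 and 1.14 to 1.81 FPKM. Lipc, hepatic lipase, had means of 87.1 and 72.2 FPKM in vehicle mice at ZT0 and ZT12, and of 109.7 and 96.7 FPKM with the product. Among the nearest in mirror image were Ndfip2 (0.292), 2810013P06Rik (0.408), Tomm70a (0.436) and Snx5 (0.439). These genes were picked by likeness and carry no test.

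The other SLC39 and SLC30 genes, Mt3, Mt4 and Mtf1 make up a list of 19, of which 10 were tested. From ZT0 to ZT12 both treatments had 2 of the 10 called lower and 0 called higher, and these were Slc39a7 and Slc30a5 in each, where 10.4% and 12.4% of all genes were called. Slc39a7 went from 65.4 to 45.8 FPKM in vehicle mice (log2 difference -0.50, adjusted p 0.0300 in limma) and from 66.2 to 45.8 FPKM with the product (-0.53, adjusted p 0.0306). Slc30a5, which brings zinc into the secretory pathway, went from 19.2 to 10.97 FPKM in vehicle mice (-0.75, adjusted p 0.00734 in limma) and from 13.0 to 9.75 FPKM with the product (-0.38, adjusted p 0.0360). For the treatment, 0 of the 10 were called in limma at ZT0, ZT12, in the interaction or over both times, and 2, 1, 3 and 5 had an unadjusted p under 0.05, against 9.23%, 6.74%, 6.63% and 10.5% of all genes. At ZT0, 9 of the 10 differences were negative, with a median of -0.16 against -0.0200 over all genes. At ZT12, 7 of the 10 were negative, with a median of -0.11 against -0.0144 over all genes.

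Genes of neighbouring pathways were counted in the same comparisons, in which 10.4% of all genes were called over time in vehicle and 12.4% in Policaptil Gel Retard mice. Of 9 copper genes tested, 0 were called in limma in any comparison, and 4 over time in vehicle and 1 in Policaptil Gel Retard mice had an unadjusted p under 0.05, against 27.4% and 29.2% of all genes. Of 7 manganese genes, Slc11a2, a divalent metal importer, was lower at ZT12 in vehicle (-0.46, adjusted p 0.0308) and Policaptil Gel Retard mice (-0.53, adjusted p 0.0419). Arg1, the manganese enzyme arginase, was higher at ZT12 with the product (0.63, adjusted p 0.0156 in limma). Of 12 acute-phase and IL-6 genes, 1 rose over time in vehicle mice, the receptor Il6ra, and 3 rose with the product, Saa1, Il6ra and Hamp. Saa1, serum amyloid A, rose by 3.51 on the log2 scale there (adjusted p 0.0447 in limma) and Hamp, hepcidin, by 1.57 (adjusted p 0.00835). For the treatment at ZT0, 0 of these 12 were called in limma, 8 had an unadjusted p under 0.05 (0.0% and 9.23% of all genes), and 12 of 12 differences were negative with a median of -0.59, against -0.0200 over all genes. The part of the acute-phase genes in the Slc39a14, Mt1 and Mt2 values was not tested.

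Of 10 glucocorticoid response genes, 2 rose from ZT0 to ZT12 in vehicle mice, Fkbp5 (1.86, adjusted p 0.0215 in limma) and Per1 (1.39, adjusted p 0.0195). With the product 7 of 10 rose, among them Per1 and Zbtb16 (adjusted p 0.00104 each in limma), the amino acid enzyme Tat (1.41, adjusted p 0.0044) and the gluconeogenic enzyme Pck1 (1.79, adjusted p 0.00638). Over all genes, 10.4% were called over time in vehicle and 12.4% in Policaptil Gel Retard mice. The list's median difference over time was 0.35 in vehicle and 1.35 in Policaptil Gel Retard mice, against 0.0078 and 0.0131 over all genes. Between treatments the list's median was -0.43 at ZT0 and 0.44 at ZT12, against -0.0200 and -0.0144 over all genes. For the treatment, 0 were called in limma in any of the 4 comparisons, the interaction included. At an unadjusted p under 0.05 in limma the counts were 2, 3, 4 and 0, against 9.23%, 6.74%, 6.63% and 10.5% of all genes. The counts of 2 and 7 called over time thus do not show a difference between treatments. In vehicle mice 7 of the 10 differences over time were positive and 3 were negative, and with the product 9 were positive and 1 was negative. Mt1 and Mt2 had positive differences in both. The part of these genes in the metallothionein values was not tested.

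Markers of other cells are given beside these results. Of 13 markers of pancreatic acinar cells, 11 were under 1 FPKM in all samples and 8 of those, Prss1 among them, were listed at 0. Their sum, carried by Cela1, ran from 47.7 to 71.2 FPKM in vehicle ZT0, 31.1 to 46.8 in vehicle ZT12, 53.5 to 76.4 in Policaptil ZT0 and 43.4 to 54.5 in Policaptil ZT12. Macrophage markers summed to 20.4 to 25.6, 10.8 to 28.2, 11.5 to 18.6 and 14.0 to 21.2 FPKM in the same order of groups. The treatments thus did not overlap at ZT0 but did at ZT12. The largest part of that sum was Clec4f, with means of 11.2, 9.10, 7.96 and 7.91 FPKM, and 2 of 7 were under 1 FPKM in all samples. Fat markers, carried by Cfd and Fabp4, summed to 11.1 to 20.4, 21.2 to 52.7, 15.5 to 15.8 and 10.4 to 22.0 FPKM, and 4 of 6 were under 1 FPKM. In the same order of groups, Cfd had means of 5.97, 26.8, 1.97 and 7.80 FPKM and Fabp4 of 10.9, 8.88, 13.7 and 9.64 FPKM. Of 5 red cell markers 1 was in the table, at 59.4 to 99.6 FPKM. Their part in the results was not tested. Relative depth, judged from the steps of low values, differed by up to 1.8-fold between libraries, and the absolute depth is unknown.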

How the data were processed

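Liver RNA of 12 mice was measured in 4 groups of 3, assigned from the labels; replicates are separate mice. The authors deposited their values as FPKM, in a single table of genes by samples. The study's methods name ELAND v2e with mm10 and UCSC junctions, uniquely aligned reads with fewer than 2 mismatches, RPKM and a stranded TruSeq mRNA kit, whereas the submitters' processing notes name TopHat, Cuffnorm, mm10 and GRCm38 and the labels a TruSeq RNA v2 kit. Which made the deposited FPKM table, and whether strand was used, is not given in the sources used here. The table holds no counts, so the depth is known only in relative terms and counting error cannot be given.

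The table has 24138 lines. Where lines shared a symbol (289 repeats), only that with the highest mean was used, and 6783 of 23849 symbols were at 0 in all samples. Genes averaging 1 FPKM or more across the 12 mice were tested on log2(FPKM + 1) with limma 3.58.1 in R 4.3.3 (lmFit, eBayes with trend), two-sided, with Benjamini-Hochberg adjustment over 9806 genes. Comparisons of 2 groups used their 6 samples, and the interaction and the treatment over both times used all 12. The study used a Cyber t-test whose settings are not given, and a version of it was an alternative. Calculations were tested on simulated data. The members and lists were chosen with earlier results of these data known. Genes named are the members, the called genes of the lists (at most 4 per list and comparison) and the 5 nearest Slc39a4 in each direction, of which 1 is not reported here. Positions are from GENCODE vM21 and promoters from RefSeq (GRCm38.p6). Figures used matplotlib 3.10.9.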

Additional observations from a re-analysis of the deposited data

How the results depend on the processing

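Alternatives covered the test (Cyber-T with prior weight 10, limma lacking its trend, all 12 samples in 1 fit, a replicate block), the scaling (median-ratio, quantile), the pseudocount (0.1), the minimum mean (none, or 5 FPKM) and each replicate left out in turn. Over time in vehicle mice, 1 member passed an adjusted p of 0.05, and 4 passed in the Cyber-T test and 4 in the fit over all 12 samples (Slc39a8, Slc30a10, Mt1 and Mt2 in both); the cause was not tested. The other 56 counts and Slc39a4 levels under these settings stayed within 1.5 times or 1 SD. Of the differences of single members, 174 kept their direction and side of the threshold under these settings, 9 now passed and 1 turned. Over all genes, 1020 passed over time in vehicle mice, and 1539 in the fit over all 12 samples. Leaving out a replicate gave 3 to 5 members over time in Policaptil Gel Retard mice, 1 in vehicle mice and 0 in the other comparisons, and Slc39a4 means of 14.6 to 15.8, 11.02 to 11.7, 20.3 to 23.6 and 19.2 to 20.8 FPKM in vehicle ZT0, vehicle ZT12, Policaptil ZT0 and Policaptil ZT12. Between treatments at ZT12, the log2 difference of Mt2 (0.01) turned to -0.0004 under quantile normalization, to -0.22 without Policaptil ZT12 replicate 2 and to -1.33 without vehicle ZT12 replicate 1, and that of Mt1 (-0.23) to 0.78 without vehicle ZT12 replicate 3; these ranged from -1.33 to 1.20 and from -1.18 to 0.78. The interaction of Mt1 (0.73) turned to -0.002 without vehicle ZT0 replicate 1 and to -0.22 without vehicle ZT12 replicate 1, in a range of -0.22 to 1.74. None of these values passed a test in limma. Scaling moved the median of all genes by less than the 0.1 that would matter on the log2 scale.

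The labels number the replicates 1 to 3 in each group, but same-numbered samples of different groups did not deviate together, with 12 correlations from -0.279 to 0.257 of which 1 was over 0.1, so the numbers were not taken as pairs. With the replicate block, 1, 4, 0, 0, 0 and 0 members passed over time in vehicle mice, over time in Policaptil Gel Retard mice, between treatments at ZT0 and at ZT12, in the interaction and over both times, which changed no call of a member. Over all genes the block left 279 calls over time in vehicle mice and 709 in place of 1212 in Policaptil Gel Retard mice. Between treatments the Cyber-T test called 69 genes at ZT0 and 23 at ZT12, where limma called 0, and 0 members in either.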
